A study of Homo sapiens with 12 samples.

Results

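The SIX-family gene SIX2, the EYA genes EYA1, EYA2 and EYA4, and DACH1 belong to a regulatory network of muscle progenitors. They were followed here in RD cells, a line from an embryonal rhabdomyosarcoma, with and without an inducible form of the fusion transcription factor PAX3-FKHR. Every probe set of the array whose single annotated symbol was one of these 5 genes, of 11963 genes so annotated, was taken, which gave 7 of 22215 probe sets. A probe set is a group of short probes that reads 1 transcript region. SIX2 and DACH1 had 2 probe sets each, called the first and the second here, and the other genes had 1.

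In the embryo, PAX3 and PAX7 mark the muscle progenitors of the somite, and SIX-family proteins act beside them and upstream of the myogenic factors MYOD1 and MYOG. These proteins bind DNA through a homeodomain, commonly at sites called MEF3, but most recruit an EYA protein to activate transcription. EYA proteins are coactivators that also carry a phosphatase domain, and DACH proteins join these complexes and act mostly as corepressors.

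The 12 arrays fell into 4 groups of 3. RD cells of every group had been transduced, either with PAX3-FKHR-ER or with the vector pK1 alone. PAX3-FKHR-ER is PAX3-FKHR joined to an altered ligand-binding domain of the estrogen receptor, which 4-hydroxytamoxifen (4-OHT) activates. Each construct was studied untreated and after 30 nM 4-OHT for 24 h, so the pK1 cells given 4-OHT show what the drug does without the fusion. The design speaks of 3 cell populations per construct, the labels do not tie replicate numbers to them, and the promoter that drives the construct is not given in the sources used here. The values are array signals on a linear scale without a unit, and changes are differences of log2(signal + 16), which understate the change of dim probe sets. Samples are bulk RNA, so fewer expressing cells and less RNA per cell cannot be told apart.

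The 4 arrays of replicate 1 stood apart from the other 8. The 15 probe sets for poly-A controls (RNA added before labelling) had a median signal of 1.93 to 5.45 on replicate 1 arrays and of 73.1 to 219 on the others. The log2 signals of the 13329 probe sets tested correlated at 0.815 to 0.869 between replicate 1 and the other arrays, and at 0.867 to 0.982 among the others. Without 4-OHT, signals of the fusion's parts went against the labels in replicate 1. PAX3 read 17.6 under the PAX3-FKHR-ER label and 49.4 under the pK1 label, where replicate 2 read 98.9 and 41.5 and replicate 3 read 105 and 30.6. FOXO1, the FKHR part, read 142 and 214, where replicate 2 read 146 and 52.1 and replicate 3 read 124 and 36.1. With 4-OHT the replicate 1 signals did not go against the labels, with PAX3 at 58.9 and 57.8 and FOXO1 at 138 and 121. Arrays are therefore named by their labels (the fusion label is PAX3-FKHR-ER), and the fitted changes that follow are given both over all 12 arrays and over replicates 2 and 3 paired by number. The 7 muscle lineage markers DES, MYOD1, MYOG, CHRNA1, CDH15, ACTC1 and MYL4 all passed the signal filter. Their summed signal was 1341 and 1236 on the pK1 replicate 2 arrays without and with 4-OHT and 3646 to 11169 on the other 10. None of the 4 epithelial markers, 1 of 3 leukocyte markers and 2 of 4 endothelial markers passed the filter. Their summed signals lay between 7.60 and 49.6, 32.8 and 124, and 30.0 and 229.

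RefSeq promoter entries (GRCh38.p14) were matched for 3 of the 5 genes, SIX2, EYA4 and DACH1. They are shown because a PAX3 protein can meet DNA through its homeodomain, which reads TAAT, as well as through its paired domain. Each runs from 150 bases before the transcription start to 5 bases into the transcript, 5′ to 3′ on the gene's own strand, with capitals marking TAAT or a pair of such sites, TAAT and its reverse complement ATTA with 3 bases between:
SIX2 (chr2:45009448-45009602, minus strand): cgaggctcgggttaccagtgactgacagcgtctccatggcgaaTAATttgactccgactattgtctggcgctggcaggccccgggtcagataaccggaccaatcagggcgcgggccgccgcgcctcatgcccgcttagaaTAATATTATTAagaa
EYA4 (chr6:133241207-133241361, plus strand): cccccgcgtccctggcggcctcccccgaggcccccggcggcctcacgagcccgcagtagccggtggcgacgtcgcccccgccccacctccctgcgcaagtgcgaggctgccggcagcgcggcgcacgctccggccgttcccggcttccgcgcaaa
DACH1 (chr13:71867200-71867354, minus strand): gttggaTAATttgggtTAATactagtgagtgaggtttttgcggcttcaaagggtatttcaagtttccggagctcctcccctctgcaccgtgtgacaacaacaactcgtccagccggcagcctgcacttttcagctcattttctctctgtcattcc

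In SIX2 the spaced TAAT and ATTA, an inverted pair of homeodomain sites, ran from base -10 to base 1, across the transcription start. Some paired-class homeodomains bind such pairs as dimers. Pairs with a spacing other than 3 bases were not searched, and binding of PAX3 was not tested. Of all 35116 promoters of the same length, 250 bases before to 50 after the start, 0.365% held the pair with 3 bases between, searched on both strands. TAAT alone occurred 4 times in the SIX2 window, 3 of them inside or overlapping that pair, and 2 times in that of DACH1, at bases -144 to -141 and -134 to -131. EYA4 held none, and 50.2% of all promoters held at least 1. TCAGGTT, a MEF3 sequence, was in 3.37% of promoters, GTCACG, a core of paired-domain sites, in 9.02% and CAGCTG, an E-box that MYOD1 can bind, in 17.9%, and none of these letters were in the 3 windows. The motifs were chosen after these promoters had been seen, and a match is only a description of letters.

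Signals of SIX2, which encodes the homeodomain protein of the set, were high on every array and differed mainly between replicate numbers. By the first probe set, cells labelled PAX3-FKHR-ER read 1312, 549 and 350.0 without 4-OHT and 1362, 579 and 474 with it, in replicates 1, 2 and 3. Cells labelled pK1 read 1269, 323 and 655 without and 1059, 304 and 489.9 with 4-OHT. All 4 replicate 1 arrays lay above the other 8, and both pK1 replicate 2 arrays lay below the other 10. The group means were, from high to low, 805 ± 485 with PAX3-FKHR-ER and 4-OHT, 749 ± 480 with pK1, 737 ± 508 with PAX3-FKHR-ER and 618 ± 393 with pK1 and 4-OHT (SD, n = 3 each), and no neighbours in that order differed by more than their spread.

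The second SIX2 probe set followed the first over the arrays, with r = 0.930 over 12 arrays and 0.887 over the 8 of replicates 2 and 3. It read 814, 273 and 215 without and 652, 380.2 and 347 with 4-OHT under the fusion label. In cells labelled pK1 it read 680.0, 158 and 412 without and 577, 108 and 428 with 4-OHT. Here too the replicate 1 arrays were the highest and the pK1 replicate 2 arrays the lowest. Of all probe sets past the filter, 11% had the 4 replicate 1 arrays above the other 8, and 9.88% had both pK1 replicate 2 arrays below the other 10.

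After 4-OHT, SIX2 by its first probe set was a little higher in each pair labelled PAX3-FKHR-ER and lower in each pair labelled pK1. Its log2 change was 0.053, 0.074 and 0.42 under the fusion label in replicates 1, 2 and 3 and -0.26, -0.081 and -0.41 under pK1. A positive change in 3 of 3 PAX3-FKHR-ER pairs with a negative one in 3 of 3 pK1 pairs was found for 204 of the 13329 probe sets, or 1.53%. The other SIX2 probe set did not show it, with -0.31, 0.46 and 0.65 under the fusion label and -0.23, -0.49 and 0.054 under pK1. Its replicate 1 pair labelled PAX3-FKHR-ER and its replicate 3 pair labelled pK1 had the opposite sign to the first probe set. Over all probe sets tested, the median absolute change with 4-OHT in a pair was 0.15 to 0.26.

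No SIX2 change with 4-OHT passed the test. By limma over 12 arrays, the change by the first probe set was 0.18 ± 0.63 (SE) under the fusion label and -0.25 ± 0.63 under pK1, and the difference of these changes was 0.43 ± 0.90, each with an adjusted p of 1.00. With each pair of arrays as a block, the difference was 0.43 ± 0.16, with unadjusted p = 0.0246 and limma adjusted p = 0.926. It was 0.49 ± 0.20 (limma adjusted p = 0.477) in the paired fit of replicates 2 and 3 alone, where the changes were 0.25 ± 0.14 under the fusion label (limma adjusted p = 0.575) and -0.24 ± 0.14 under pK1 (limma adjusted p = 0.883). By the second probe set the difference was 0.49 ± 0.95 over 12 arrays (limma adjusted p = 1.00) and 0.77 ± 0.23 in replicates 2 and 3 (limma adjusted p = 0.312). Its change under the fusion label was 0.27 ± 0.67 over 12 arrays (limma adjusted p = 1.00) and 0.55 ± 0.16 in replicates 2 and 3 (limma adjusted p = 0.182), the smallest adjusted p of any of these genes in any fit.

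Between the constructs, SIX2 had no common direction. By the first probe set the difference, fusion label minus pK1, was 0.048, 0.74 and -0.87 (log2) without and 0.36, 0.89 and -0.047 with 4-OHT at replicate numbers 1, 2 and 3. The second gave 0.25, 0.73 and -0.89 without and 0.17, 1.68 and -0.29 with 4-OHT. Replicate 2, where the pK1 arrays were low, was positive and replicate 3 negative in each case. Over 12 arrays the limma difference by the first probe set was -0.030 ± 0.63 without and 0.40 ± 0.63 with 4-OHT (adjusted p = 1.00 for both). In replicates 2 and 3 it was -0.068 ± 0.39 without (limma adjusted p = 0.970) and 0.42 ± 0.39 with 4-OHT (limma adjusted p = 0.697). The second probe set gave 0.032 ± 0.67 and 0.52 ± 0.67 over 12 arrays (limma adjusted p = 1.00 for both), and -0.079 ± 0.53 (limma adjusted p = 0.975) and 0.69 ± 0.53 (limma adjusted p = 0.626) in replicates 2 and 3.

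**Figure D1:**
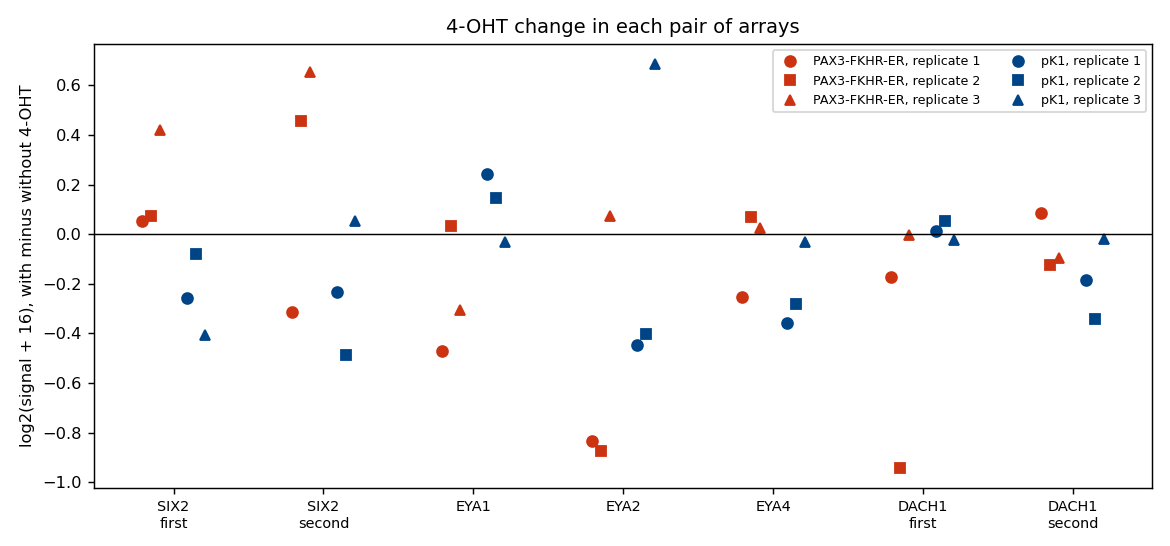
The log2(signal + 16) with 4-OHT minus that without, on the vertical axis, for each of the 7 probe sets on the horizontal axis; each point is 1 pair of arrays, red for PAX3-FKHR-ER and blue for pK1, with the marker shape giving the replicate. For the first SIX2 probe set the 3 red points lie above 0 (0.053 to 0.42) and the 3 blue points below it (-0.41 to -0.081), while the other probe sets have points of a colour on both sides of 0 or of both colours on the same side.

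EYA1, 1 of the 3 EYA coactivators measured, gave moderate signals on every array. Under the fusion label it read 174, 106 and 93.8 without and 121, 109 and 72.9 with 4-OHT in replicates 1, 2 and 3. Under the pK1 label it read 104, 73.7 and 81.6 without and 126, 83.1 and 79.5 with 4-OHT. The means were 125 ± 43.5 with PAX3-FKHR-ER, 101 ± 25.2 with PAX3-FKHR-ER and 4-OHT, 96.3 ± 26.0 with pK1 and 4-OHT and 86.5 ± 15.8 with pK1 (SD, n = 3 each), and neighbours overlapped.

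Without 4-OHT, EYA1 was higher under the fusion label at each replicate number, by 0.66, 0.44 and 0.17 (log2), a direction shared by 12.4% of probe sets past the filter. With 4-OHT the same differences were -0.049, 0.33 and -0.10. The limma difference without 4-OHT was 0.43 ± 0.27 over 12 arrays (adjusted p = 1.00) and 0.31 ± 0.24 in replicates 2 and 3 paired by number (adjusted p = 0.698), so it did not pass the test. Without the replicate 1 array of the fusion label, the 12-array difference was 0.19. The EYA1 change with 4-OHT had no common sign over the pairs of either label: -0.47, 0.035 and -0.30 under the fusion label and 0.24, 0.14 and -0.031 under pK1. By limma it was -0.25 ± 0.27 and 0.12 ± 0.27 over 12 arrays (adjusted p = 1.00 for both), and -0.13 ± 0.19 (adjusted p = 0.871) and 0.056 ± 0.19 (adjusted p = 0.979) in replicates 2 and 3.

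EYA4 was higher under the fusion label at every replicate number, with and without 4-OHT, but the difference did not pass the test. Under the fusion label it read 221, 113 and 81.5 without and 183, 119 and 83.1 with 4-OHT. Under the pK1 label it read 191, 51.6 and 46.0 without and 146, 39.6 and 44.7 with 4-OHT. Among the arrays of replicates 2 and 3, the 4 labelled PAX3-FKHR-ER, at 81.5 to 119, all lay above the 4 labelled pK1, at 39.6 to 51.6, a separation found for 7.25% of probe sets past the filter. The 4 replicate 1 arrays, at 146 to 221, lay above all of them under either label, as for 11% of probe sets past the filter. From high to low the group means were 139 ± 73.4 with PAX3-FKHR-ER, 129 ± 50.6 with PAX3-FKHR-ER and 4-OHT, 96.3 ± 82.4 with pK1 and 76.7 ± 59.97 with pK1 and 4-OHT (SD, n = 3 each), and neighbours overlapped.

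By replicate number, the EYA4 difference was 0.20, 0.93 and 0.65 (log2) without and 0.30, 1.29 and 0.71 with 4-OHT. Of the probe sets past the filter, 3.23% were higher in all 6 of these comparisons. Over 12 arrays the limma difference was 0.59 ± 0.55 without and 0.76 ± 0.55 with 4-OHT, both with an adjusted p of 1.00. It was 0.79 ± 0.26 without (limma adjusted p = 0.416) and 1.00 ± 0.26 with 4-OHT (limma adjusted p = 0.206) in replicates 2 and 3 paired by number, and it did not pass the test in either fit. Leaving out 1 array moved the 12-array difference to between 0.23 and 1.15 without 4-OHT, at the lower end without the replicate 1 array of the fusion label and at the upper end without that of pK1. With 4-OHT it moved to between 0.49 without pK1 replicate 2 and 1.26 without pK1 replicate 1.

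Within a construct, no EYA4 change with 4-OHT passed the test. The pairs labelled PAX3-FKHR-ER gave -0.25, 0.070 and 0.024 (log2) and the pairs labelled pK1 gave -0.36, -0.28 and -0.031. The median absolute change over all probe sets tested was 0.16, 0.21 and 0.19 in the PAX3-FKHR-ER pairs. In the pK1 pairs it was 0.26, 0.21 and 0.15. EYA4 and the first SIX2 probe set were the tested probe sets of the set that were lower in 3 of 3 pK1 pairs, as were 16.6% of all probe sets past the filter. By limma, EYA4 with 4-OHT was at -0.054 ± 0.55 under the fusion label and -0.22 ± 0.55 under pK1 over 12 arrays (adjusted p = 1.00 for both). In replicates 2 and 3 it was at 0.047 ± 0.20 (limma adjusted p = 0.969) and -0.16 ± 0.20 (limma adjusted p = 0.938).

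**Figure D2:**
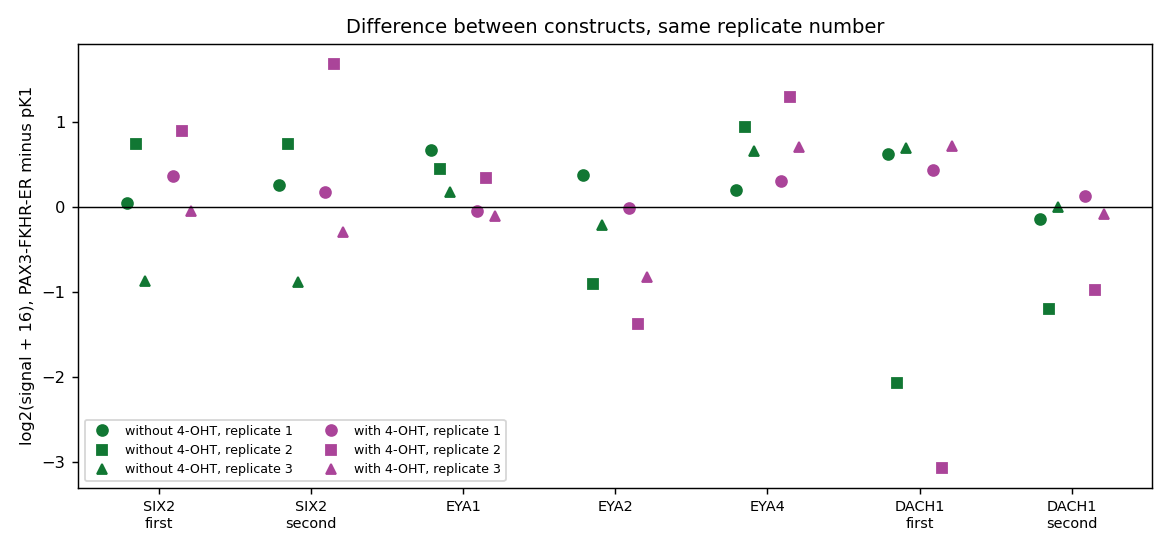
The log2(signal + 16) of an array labelled PAX3-FKHR-ER minus that of the array labelled pK1 with the same replicate number, for each of the 7 probe sets; green is without and purple with 4-OHT, and marker shapes give the replicate. EYA4 has all 6 points above 0 (0.20 to 1.29), EYA1 has its 3 green points above 0, and the lowest point is the first DACH1 probe set in replicate 2 with 4-OHT (-3.07).

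EYA2 lay under the signal filter of 36.7, the mean signal below which the dimmest 40% of probe sets were left out. Under the fusion label it read 27.2, 33.0 and 4.09 without and 8.22, 10.7 and 5.15 with 4-OHT. Under pK1 it read 17.4, 76.1 and 7.35 without and 8.51, 53.7 and 21.5 with 4-OHT. Its 2 highest arrays were those of pK1 replicate 2, and every other array was below the filter. The group means were 33.6 ± 37.1 with pK1, 27.9 ± 23.3 with pK1 and 4-OHT, 21.4 ± 15.3 with PAX3-FKHR-ER and 8.03 ± 2.80 with PAX3-FKHR-ER and 4-OHT (SD, n = 3 each), with neighbours within their spread. In a limma fit to all 22215 probe sets, its change with 4-OHT under the fusion label was -0.54 ± 0.52 over 12 arrays (adjusted p = 1.00) and -0.40 ± 0.37 in replicates 2 and 3 paired by number (adjusted p = 0.794). Its difference between constructs with 4-OHT was -0.74 ± 0.52 over 12 arrays (limma adjusted p = 1.00) and -1.11 ± 0.41 in replicates 2 and 3 (limma adjusted p = 0.433).

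DACH1, the corepressor, was bright in 1 pair of arrays only and dim elsewhere. By the first probe set it read 137 without and 143 with 4-OHT in pK1 replicate 2, against 1.995 and 2.16 in pK1 replicate 1 and 1.63 and 1.35 in pK1 replicate 3. Under the fusion label it read 11.6, 20.5 and 12.4 without and 8.52, 3.02 and 12.4 with 4-OHT. The second probe set read 27.7 and 18.5 in pK1 replicate 2 and 0.743 to 3.05 on the other 10 arrays. By the first probe set the group means were 48.9 ± 81.6 with pK1 and 4-OHT, 47.0 ± 78.3 with pK1, 14.8 ± 4.90 with PAX3-FKHR-ER and 7.97 ± 4.71 with PAX3-FKHR-ER and 4-OHT (SD, n = 3 each), so the pK1 means rest on 1 array each. The DACH1 probe sets correlated at r = 0.934 over 12 arrays.

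Both DACH1 probe sets and EYA2 thus had the pK1 replicate 2 arrays above the other 10, as did 9.37% of all 22215 probe sets. Both probe sets of SIX2 had them below the others. These were the arrays with the lowest summed muscle marker signal, and its part in these levels was not tested. Neither DACH1 probe set passed the filter, and in the fit to all probe sets DACH1 by its first probe set differed between the constructs by -0.64 ± 0.89 with 4-OHT over 12 arrays (limma adjusted p = 1.00) and by -1.18 ± 0.94 in replicates 2 and 3 (limma adjusted p = 0.732). Without pK1 replicate 2, this probe set read 1.35 to 2.16 under pK1 and 3.02 to 20.5 under the fusion label, all under the filter.

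**Figure D3:**
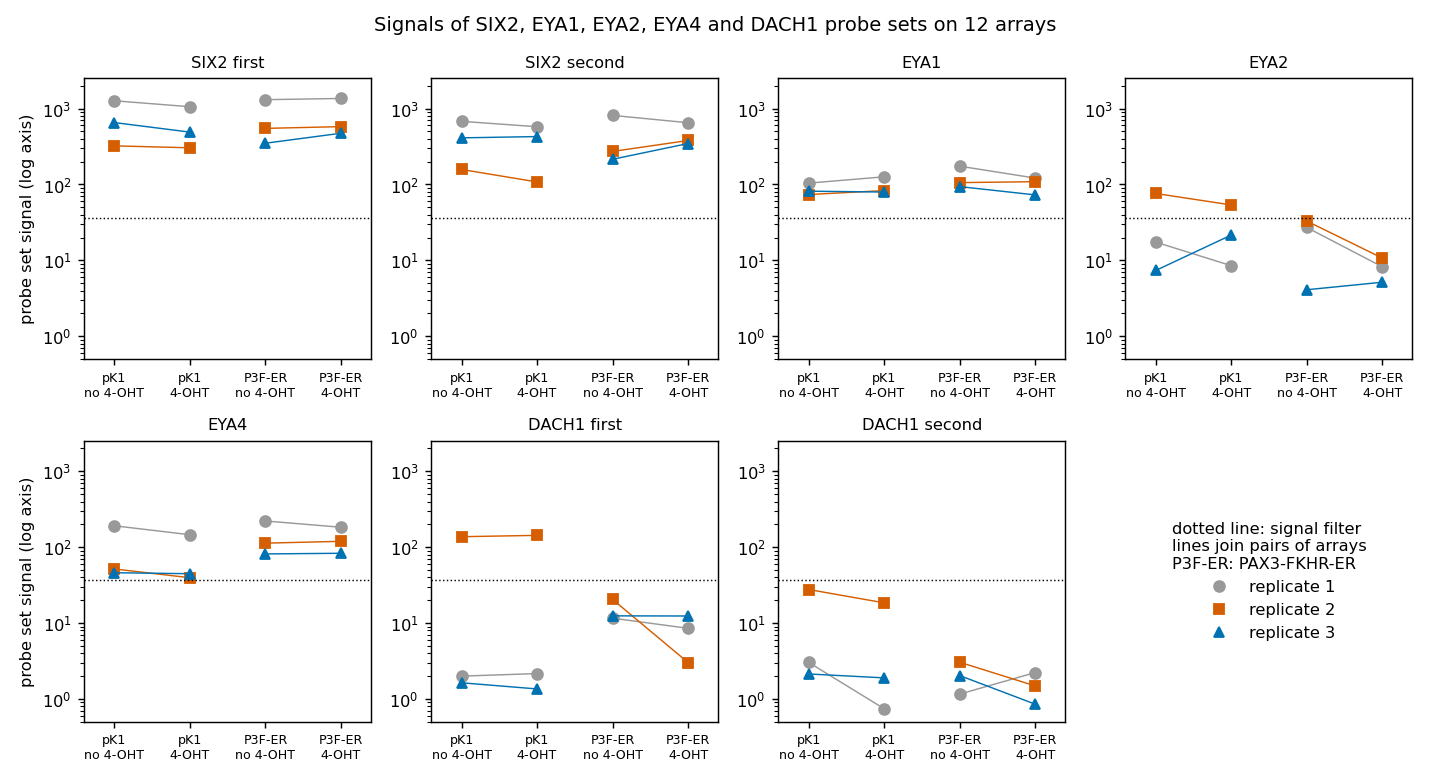
Signals of the 7 probe sets on a log axis, 1 panel each, over the 4 groups; each point is 1 array, the marker gives the replicate, lines join arrays of the same construct and number, and the dotted line is the signal filter of 36.7. SIX2, EYA1 and EYA4 stay above the line, replicate 1 (grey) is highest for SIX2 and EYA4, and EYA2 and the first DACH1 probe set cross the line in pK1 replicate 2 alone.

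Across the 5 comparisons, limma called none of the 20 results of the 4 probe sets past the filter, and over 12 arrays it called 0% of all probe sets in each comparison. At an unadjusted p under 0.05, 0 of the 20 passed over 12 arrays and 4 with the block. Of all 13329 probe sets, 39 to 277 passed unadjusted in a comparison over 12 arrays, and 634 to 981 with the block. With the block, again 0% of all probe sets were called. With replicates 2 and 3 alone and the block, 5 of the 20 passed unadjusted and 0 adjusted. There, 760 to 1732 of the 13329 probe sets passed unadjusted in a comparison. In that fit 1.4% of all probe sets were called for 4-OHT under the fusion label, 0% for 4-OHT under pK1 and 0.0525% for the difference of these changes. Between the constructs it called 0.0075% without and 0.158% with 4-OHT. Comparisons that share arrays, such as the change under the fusion label and the difference of changes, are not separate evidence.

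Over the 12 arrays some members had similar profiles. EYA4 correlated at 0.845 with SIX2 and at 0.847 with EYA1, SIX2 at 0.765 with EYA1, and EYA2 at 0.808 with DACH1, each by its brightest probe set. SIX2 and DACH1 had r = -0.614, and the other pairs with a negative r lay between -0.459 and -0.144. Over the 8 arrays of replicates 2 and 3, EYA1 with EYA4 was at 0.727, EYA2 with DACH1 at 0.836 and SIX2 with DACH1 at -0.814. SIX2 was there at 0.376 with EYA4 and at 0.352 with EYA1. The values for DACH1 include the pK1 replicate 2 arrays, where DACH1 and EYA2 were highest and SIX2 was lowest. Correlations without those arrays are not given. The labels do not say which arrays share a cell population, so the values are descriptions.

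For each member, the 3 genes outside the set with the highest r over 12 arrays were taken, so a high r largely follows from the choice. The profile nearest to SIX2 was that of PRKD3, a protein kinase D, with r = 0.975 over 12 arrays and 0.891 over 8, followed by ARMCX2 (0.967 and 0.846) and HOMER3 (0.965 and 0.817). EYA1 was nearest to CCNG2, an atypical cyclin, at 0.908 and 0.803, then to TMEM123 (0.902 and 0.844) and SMCHD1, a chromatin silencer, at 0.887 and 0.825. EYA4 was nearest to NDUFV2, a subunit of respiratory complex I, at 0.975 and 0.931, to TCF12, an E-protein partner of MYOD1, at 0.971 and 0.958, and to UBFD1 at 0.966 and 0.987. Each of these neighbours had its lowest replicate 1 signal above its highest signal in replicates 2 and 3, as PRKD3 at 491 and 315. Of all probe sets past the filter, 11% had the 4 replicate 1 arrays above the other 8. The r over 12 arrays includes that offset.

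The dim members had different neighbours. EYA2 was nearest to SLC22A5, a carnitine transporter, at 0.911 and 0.949, then IFT27 (0.896 and 0.935) and PRDX4, a peroxiredoxin, at 0.892 and 0.901. DACH1 was nearest to GUCY1B1, a subunit of soluble guanylate cyclase, at 0.971 and 0.975, to HLA-DPA1 at 0.964 and 0.975 and to GCHFR at 0.962 and 0.983. All 6 of these probe sets had a mean on the pK1 replicate 2 arrays above their highest signal elsewhere: GUCY1B1 read 113 against at most 50.7, and HLA-DPA1, a class II antigen chain, 232 against at most 22.3. They were picked by r with members that were highest on those arrays, so this order largely follows from the choice. Both pK1 replicate 2 arrays lay above the other 10 for 12.4% of probe sets past the filter.

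Other genes of the families were mostly dim. Of 8 further genes of the EYA, DACH, SKI and SIX-type families, 6 had a single-symbol probe set and 1, the corepressor SKI, passed the filter, at 24.6 to 65.5. SIX3 read 49.9 to 74.0 on the 4 replicate 1 arrays and 1.91 to 23.6 on the others, an order found for 7.22% of all 22215 probe sets. EYA3 read 5.26 to 44.7 and SIX6 11.4 to 50.6. SKI was at 0.099 ± 0.27 with 4-OHT under the fusion label in replicates 2 and 3 paired (limma adjusted p = 0.942) and at 0.050 ± 0.28 over 12 arrays (limma adjusted p = 1.00).

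Among 16 PAX, homeobox and other progenitor regulators, 14 were on the array and 7 passed the filter. In replicates 2 and 3, paired, limma called 0 of the 7 higher with 4-OHT under the fusion label and 1 lower. Of all probe sets tested, 0.795% were called higher and 0.6% lower. By sign, 2 of the 7 changes were positive and 5 negative. The median was -0.26 against -0.019 over all probe sets tested. In the same fit 0 of the 7 muscle lineage markers were called higher and 2 lower, MYOG and ACTC1. By sign, 5 of the 7 had a negative change, with a median of -0.53. ACTC1, cardiac actin, read 5601 and 3015 without and 2481 and 1685 with 4-OHT and fell by 1.00 ± 0.13 on the log2 scale (limma adjusted p = 0.00892). In the replicate 1 pair it went from 769 to 1254, and over 12 arrays its change was -0.44 ± 0.83 (limma adjusted p = 1.00). Over 12 arrays the medians were 0.020 for the regulators and -0.22 for the muscle markers, against -0.013 over all probe sets tested. MYOG, the factor that drives myoblasts to differentiate and a described target of SIX-family proteins, read 298 and 172 without and 20.8 and 19.7 with 4-OHT. It fell by 2.74 ± 0.25 on the log2 scale (limma adjusted p = 0.00327). In the replicate 1 pair it went from 13.4 to 53.0, and over all 12 arrays with the block its change was -1.42 ± 0.62 (limma adjusted p = 0.721).

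MYOD1, the myogenic determination factor, read 1380.0 and 1111 without and 1912 and 1809 with 4-OHT in those pairs, a change of 0.58 ± 0.12 that did not pass (limma adjusted p = 0.0625). Over 12 arrays its change was 0.48 ± 0.75, that of MSC -0.24 ± 0.45 and that of TBX1 -0.16 ± 0.60 (limma adjusted p = 1.00 for each). In replicates 2 and 3, MSC, a bHLH repressor, was at -0.36 ± 0.13 (limma adjusted p = 0.324) and TBX1 at -0.44 ± 0.30 (limma adjusted p = 0.650). Between the constructs with 4-OHT, MYOD1 was called higher under the fusion label, at 1912 and 1809 against 197 and 322, by 2.80 ± 0.29 (limma adjusted p = 0.0385) in replicates 2 and 3, where 0.128% of all probe sets were called higher, and was at 1.61 ± 0.75 over 12 arrays (limma adjusted p = 1.00). In replicate 1 MYOD1 read 1216 under the fusion label and 2098 under pK1. Without 4-OHT, the fitted difference, fusion label minus pK1, was positive for all 7 regulators and 0 were called. Its median was 1.19 in replicates 2 and 3 and 0.72 over 12 arrays, against 0.020 and -0.0061 over all probe sets tested. With 4-OHT it was positive for 6 of the 7 in replicates 2 and 3 and for 5 over 12 arrays. PAX3, part of the construct, is among the 7. Without 4-OHT the 7 muscle lineage markers, of which MYOD1 and MYOG are also regulators, likewise all had a positive fitted difference, and 0 were called. Their medians were 1.33 and 0.82. Their summed signal without 4-OHT was 3646, 11169 and 6991 under the fusion label in replicates 1, 2 and 3. Under pK1 it was 4558, 1341 and 7236, so the sum was higher under the fusion label in replicate 2 alone. With 4-OHT, 5 of the 7 were positive in replicates 2 and 3 and 4 over 12 arrays. Among pK1 arrays without 4-OHT, replicate 2 was the lowest for MYOD1, at 222, and MYOG, at 10.3, while PITX3, a homeobox regulator, read 34.9 there and 21.1 in replicate 3. The part of the muscle markers in the regulators' difference was not tested.

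Of 14 genes described as targets of EYA and SIX-family proteins, 10 of the 12 on the array passed the filter. With 4-OHT under the fusion label in replicates 2 and 3, 0 were called higher and 1, MYOG, lower, beside 0.795% and 0.6% of all probe sets tested. Of the 10 changes, 4 were positive and 6 negative. The median was -0.078 against -0.019 over all probe sets tested, and -0.048 against -0.013 over 12 arrays. CCNA1, a cyclin described as such a target, read 96.3 and 84.1 without and 254 and 295 with 4-OHT, a change of 1.45 ± 0.29 (limma adjusted p = 0.0552). CCND1, cyclin D1, was at -0.78 ± 0.17 (limma adjusted p = 0.0688). Over 12 arrays CCNA1 was at 0.80 ± 0.73 and CCND1 at -0.23 ± 0.92 (limma adjusted p = 1.00 for both). Between the constructs with 4-OHT, CCNA1 was called higher under the fusion label by 3.28 ± 0.35 in replicates 2 and 3 (limma adjusted p = 0.0385), with 26.2 and 5.21 under pK1. In replicate 1 it read 25.8 under the fusion label and 91.2 under pK1, and over 12 arrays the difference was 1.73 ± 0.73 (limma adjusted p = 1.00).

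All 12 cofactors on the array, of 15 listed that bind these proteins, passed the filter. In the same pairs 1 was called higher and 0 lower with 4-OHT, beside 0.795% and 0.6% of all probe sets tested. Of the 12 changes, 8 were positive and 4 negative. The median was 0.075 against -0.019 over all probe sets tested, and -0.017 against -0.013 over 12 arrays. JUN, an AP-1 subunit that DACH1 can bind, read 461 and 208 without and 751 and 424 with 4-OHT and rose by 0.83 ± 0.13 (limma adjusted p = 0.0239). The deacetylase HDAC1 was at -0.31 ± 0.11 (limma adjusted p = 0.313), TLE2, a Groucho corepressor, at -0.51 ± 0.23 (limma adjusted p = 0.437) and TLE3 at 0.30 ± 0.17 (limma adjusted p = 0.586). Over 12 arrays JUN was at 0.59 ± 0.56, HDAC1 at -0.18 ± 0.60, TLE2 at -0.20 ± 0.30 and TLE3 at 0.41 ± 0.42 (limma adjusted p = 1.00 for each). Over 12 arrays limma called 0 genes of any of these lists in any comparison.

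**Figure D4:**
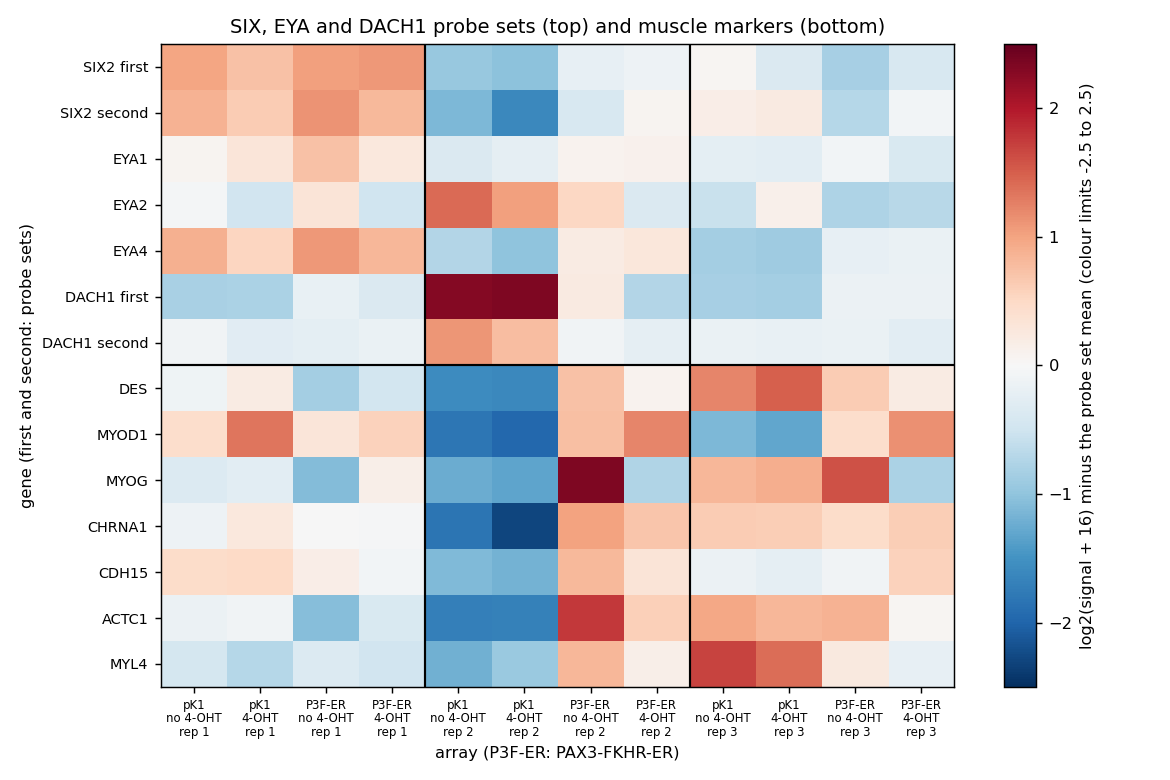
Each cell is log2(signal + 16) of a probe set on 1 array minus its mean over the 12 arrays, with red higher and blue lower; rows are the 7 member probe sets and, under the line, the 7 muscle markers, and columns are arrays ordered by replicate. SIX2 and EYA4 are red across replicate 1, and in the pK1 replicate 2 columns DACH1 and EYA2 are red while SIX2, EYA4 and the muscle markers are blue. EYA4 is blue in the pK1 replicate 3 columns too.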

How the data were processed

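RNA of 12 samples was measured on Affymetrix human arrays. The deposited intensity values are probe set signals. According to the submitters' processing notes, which give no versions, the authors made them with MAS5 and GCOS. Of 22215 probe sets, after 68 controls were left out, 19065 had 1 annotated symbol, 1043 several and 2107 none. No detection calls were used here. Signals were not rescaled.

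Signals were taken as log2(signal + 16). Probe sets with a mean under 36.7 (the lowest 40%) were left out, and 13329 were fitted with limma 3.58.1 in R 4.3.3 (eBayes with an intensity trend) over 12 arrays in 5 contrasts. Tests were two-sided, and Benjamini-Hochberg adjusted p-values were held against 0.05 over all probe sets of a contrast. Code was tested on simulated data. Figures used matplotlib 3.10.9.

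The genes, lists and fits were chosen with earlier results of these data known. Named genes are the members, the 3 most correlated genes of each, and up to 4 of each list by smallest p in the paired fit of replicates 2 and 3 for 4-OHT under the fusion label. List genes use the brightest probe set. Other calls named in a list were chosen after their values were seen.

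Whether replicate numbers pair the arrays was checked by correlating deviations from group means between same-numbered arrays. These were 0.703 to 0.851 for 4-OHT under the fusion label, 0.789 to 0.817 under pK1, and 0.152 to 0.685 without and 0.182 to 0.573 with 4-OHT between constructs. All exceeded 0.1, so blocked fits are given. This check cannot show pairing, because the replicate 1 array stood apart from the others in every group. That shared offset enters every group mean and can by itself make same-numbered deviations correlate. No correlations of differently numbered arrays are given to compare with. Pairing among the other arrays, within or between constructs, was therefore not tested, and the blocked fits assume it. The labels do not say whether each replicate number is a separate cell population, so p-values measure only the spread between these samples, which may be technical. There were 0 pairs of identical arrays.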

Additional observations from a re-analysis of the deposited data

Results flagged for a closer look

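The 4-OHT change of SIX2, by its first probe set, was positive in all 3 pairs labelled PAX3-FKHR-ER and negative in all 3 pairs labelled pK1, and the mean changes differed by 0.43 (log2). By limma this difference had adjusted p = 1.00 over 12 arrays, 0.926 with the block and 0.477 with the block in replicates 2 and 3. The second SIX2 probe set did not have this pattern, which 1.53% of probe sets past the filter shared.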

How the results depend on the processing

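No member result was called in any fit: 11 planned settings, 2 added after the data were seen so that dim members could be tested, and leaving out each array of the 12 in turn. Of the 20 member results past the filter, 5 kept their sign in all of these and 15 changed sign when 1 array was left out, as follows (log2). For 4-OHT under the fusion label, the first SIX2 probe set ranged from -0.27 to 0.70, the second ranged from -0.10 to 0.83 and EYA4 ranged from -0.34 to 0.31. For 4-OHT under pK1, the first SIX2 probe set ranged from -0.73 to 0.23, the second ranged from -0.77 to 0.46, EYA4 ranged from -0.72 to 0.34 and EYA1 ranged from -0.064 to 0.24. For the difference of these changes, the first SIX2 probe set ranged from -0.046 to 0.95, the second ranged from -0.20 to 1.05 and EYA4 ranged from -0.39 to 0.66. For the constructs without 4-OHT, the first SIX2 probe set ranged from -0.54 to 0.45 and the second ranged from -0.53 to 0.48. For the constructs with 4-OHT, the first SIX2 probe set ranged from -0.049 to 0.87, the second ranged from -0.16 to 0.96 and EYA1 ranged from -0.068 to 0.25. The 5 that kept their sign also moved by over 1.5 times when 1 array was left out. EYA4 between the constructs ranged from 0.23 to 1.15 without and from 0.49 to 1.26 with 4-OHT, and EYA1 without 4-OHT ranged from 0.19 to 0.58. The EYA1 change with 4-OHT under the fusion label ranged from -0.40 to -0.0069, lowest in size without the replicate 1 array untreated under that label, and its difference of changes ranged from -0.52 to -0.13. In replicates 2 and 3 alone, with and without the block, EYA4 with 4-OHT under the fusion label was 0.047 in place of -0.054, and the second SIX2 probe set between the constructs without 4-OHT was -0.079 in place of 0.032. The cause was not tested.

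Counts of called probe sets were 0 over 12 arrays, also with the replicate block. Limma on replicates 2 and 3 alone called 1 probe set between the constructs without and 13 with 4-OHT. With the replicate block these were 1 and 21, with 186 for 4-OHT under the fusion label and 7 for the difference of changes. Without the signal filter the blocked counts were 37 for 4-OHT under the fusion label and 4 between the constructs with 4-OHT. The block left few residual degrees of freedom, and 2 or 3 arrays a group limit every estimate. Signals near the array's floor, as for EYA2 and DACH1, have no dependable order.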
